A study of Danio rerio with 12 samples.

Results

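Zebrafish *fat3a*, *celsr2* and *pcdh2ab7* encode 3 large cell surface proteins of the cadherin superfamily, and their signal was followed through lead (Pb) exposure in larvae of 2 ages. They were picked by name, with their Pb and stage values in these arrays already known, and each is 1 of 37157 array targets, of which 2663 carried a gene symbol here. Because measured values entered that choice, all values of the 3 genes below are a description and carry no test. Wild-type AB embryos were kept in water with 100 ppb Pb (as Pb acetate) or with 0 ppb (controls), starting soon after fertilization, and were collected at 120 or 72 hr postfertilization (hpf). Each group (Pb 120 hpf, control 120 hpf, Pb 72 hpf and control 72 hpf) held 3 biological replicates, each a pool of 50 whole animals hybridized to a one-color oligonucleotide array. A pool of whole larvae gives 1 signal for all organs, so fewer cells of a type and less RNA per cell cannot be told apart in any value below.

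Cadherins are calcium-dependent adhesion proteins built from repeated extracellular cadherin domains. Classic cadherins bind catenins and anchor actin at cell junctions, whereas the atypical Fat and Celsr proteins lack that catenin-binding tail and serve mainly in cell orientation and cell contact signaling. Fat3 is a giant cadherin that, in the mouse, shapes the dendrites of retinal amacrine cells. Celsr2 is a seven-pass transmembrane cadherin of the core planar cell polarity pathway and is needed in zebrafish for the migration of facial branchiomotor neurons. Clustered protocadherins such as *pcdh2ab7* are neuronal proteins made from arrays of variable exons joined to shared constant exons, and different isoform sets give neurons different surface identities.

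All 3 genes had their highest group mean in control larvae at 72 hpf, and the Pb larvae of that age lay 0.58 to 0.75 log2 units below them. At 120 hpf the Pb and control means of each gene were within 0.14 log2 units of each other. The signal is given as log2 intensity, the mean of 12 probes per gene after quantile normalization across the 12 arrays, and replicates are listed in the order 1, 2 and 3. Signals of different genes depend on their probes and are not set against each other.

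*fat3a* had 7.63, 6.35 and 6.93 log2 units in Pb larvae at 120 hpf, against 7.52, 6.71 and 6.95 in controls of that age. At 72 hpf it had 6.92, 7.09 and 7.02 in Pb larvae, against 7.58, 7.86 and 7.32 in controls. Each Pb array at 72 hpf was below each control array, while at 120 hpf the groups overlapped. The means were 6.97 ± 0.641 in Pb and 7.06 ± 0.413 in control larvae at 120 hpf, and 7.01 ± 0.0858 in Pb and 7.59 ± 0.267 in control larvae at 72 hpf (SD, n = 3 each). The 3 lower means differed by less than their SDs, and the control mean at 72 hpf lay above the next one by more than either SD.

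*celsr2* was the most variable of the 3, with a residual SD of 0.857 that stood at the 97.8th percentile of all targets. It had 8.998, 6.72 and 7.503 log2 units in Pb larvae at 120 hpf, against 8.32, 8.34 and 6.97 in controls. At 72 hpf it had 7.52, 8.09 and 8.90 in Pb larvae, against 8.13, 9.16 and 9.47 in controls. The Pb and control arrays overlapped at both ages, and replicate 3 was the highest array of both groups at 72 hpf. The means ran in the order 7.74 ± 1.16 (Pb, 120 hpf), 7.88 ± 0.786 (control, 120 hpf), 8.17 ± 0.697 (Pb, 72 hpf) and 8.92 ± 0.702 (control, 72 hpf; SD, n = 3 each), and each step between neighbors was close to or smaller than the SDs.

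*pcdh2ab7* had 8.41, 6.98 and 7.68 log2 units in Pb larvae at 120 hpf, against 8.06, 7.19 and 7.96 in controls. At 72 hpf it had 7.18, 8.25 and 7.53 in Pb larvae, against 8.38, 8.44 and 8.24 in controls. The control arrays at 72 hpf were tightly grouped, and only Pb replicate 2 reached their lowest value. The means were 7.69 ± 0.716 in Pb and 7.74 ± 0.477 in control larvae at 120 hpf, and 7.65 ± 0.547 in Pb and 8.35 ± 0.103 in control larvae at 72 hpf (SD, n = 3 each), so that the 3 lower groups differed by less than their SDs. Pb replicate 2 at 120 hpf was the lowest of the 12 arrays for each of the 3 genes, and the residual SDs of *fat3a* (0.406) and *pcdh2ab7* (0.512) were also above the median of 0.324 over all targets.

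**Figure D1:**
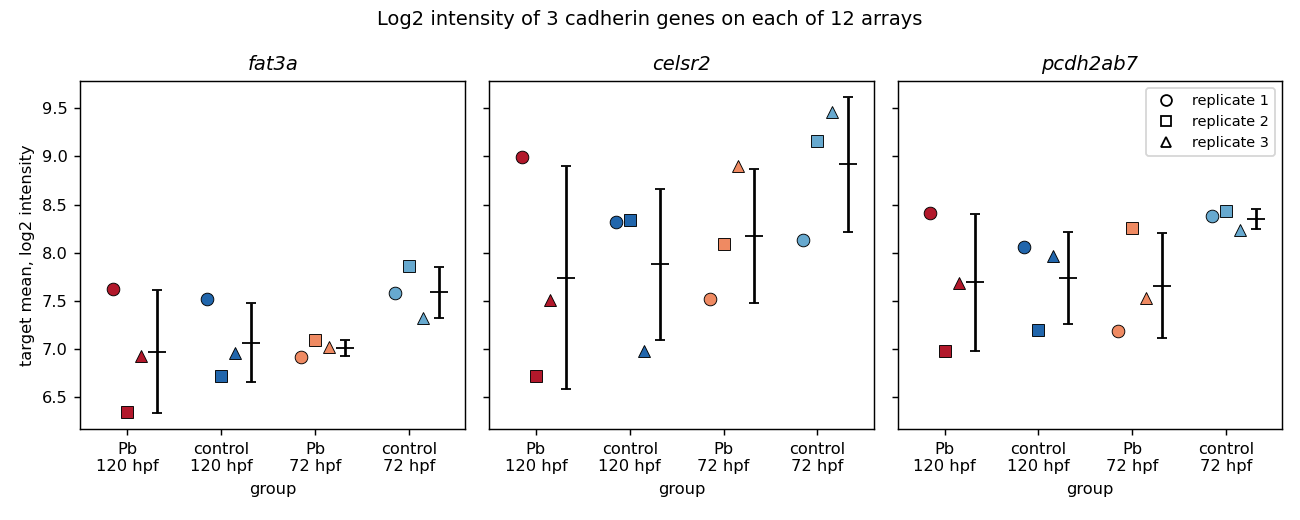
Log2 intensity (vertical axis) of *fat3a*, *celsr2* and *pcdh2ab7* in the 12 arrays, with 1 point per array and the group mean and SD drawn for Pb and control larvae at 120 and 72 hpf. Control larvae at 72 hpf have the highest mean in each panel (7.59, 8.92 and 8.35), and the *fat3a* points of the Pb and control groups at that age do not overlap.

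The study asked how the transcriptome of Pb-exposed larvae differs from that of controls at each age. At 72 hpf the log2 difference (Pb minus control) was -0.58 for *fat3a* (SE 0.306), -0.75 for *celsr2* (SE 0.581) and -0.70 for *pcdh2ab7* (SE 0.368). Expressed as folds, control larvae had 1.49, 1.68 and 1.62 times the signal of Pb larvae. Among all targets, whose median difference was 0.04, the 3 values stood at the 4.77th, 2.46th and 3.06th percentile. The limma fit across all targets called 0 of the 3 genes at an adjusted p under 0.05, and 0 of 37157 targets (0%; 566 had an unadjusted p under 0.05). *fat3a* was the 1 gene of the 3 with Pb arrays all below control arrays, a pattern found in 1.92% of all targets. Since these contrasts entered the choice of the genes, nothing is read from these counts.

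Pb and control samples of the same number can also be set against each other. The *fat3a* ratios at 72 hpf were -0.66, -0.77 and -0.31 log2 units in replicates 1, 2 and 3. For *celsr2* they were -0.61, -1.07 and -0.56, and for *pcdh2ab7* -1.19, -0.18 and -0.71. Signal was thus lower in the Pb sample of each pair for all 3 genes, with the least uniform sizes in *pcdh2ab7*. The 9 ratios come from only 3 pairs of arrays and from genes chosen with these values known, so nothing is read from their number. The arrays of replicates 1 and 3 at this age were also the most unlike their controls over all targets, with SDs of the ratios of 0.662 and 0.572, against 0.266 in replicate 2. Leaving out Pb replicate 1, which had the lowest signal among the 72 hpf arrays for each of the 3 genes, gave -0.53 for *fat3a*, -0.42 for *celsr2* and -0.46 for *pcdh2ab7*. The *celsr2* value was -0.47 without control replicate 3 and -1.14 without control replicate 1.

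2 criteria adapted from the study's methods were applied separately to the same values. As applied here, they accept a target whose unadjusted p in the methods' test of means is at most 0.1 with a mean ratio of at least 1.5-fold, or one that passes 1.5-fold in the same direction in every replicate. At 72 hpf 244 targets met the criterion on the mean ratio (68 higher and 176 lower in Pb), with 0 left after Benjamini-Hochberg adjustment of its p-values. The other criterion, which has no p-value to adjust, was met by 87 (6 higher and 81 lower). *pcdh2ab7* met the criterion on the mean ratio, with lower signal in Pb larvae. *fat3a*, at -0.58, lay just outside the 1.5-fold limit of 0.585 log2 units, and *celsr2* was past the fold on its mean but met neither criterion. Its ratio in replicate 3, -0.56, was short of that limit. Without its probe at 827 nt, left out after seeing the data, the *celsr2* ratios were -1.19, -0.98 and -0.62, each past the limit. Its failure on the criterion for every replicate thus rests on 1 probe. None of the 3 met either criterion at 120 hpf, where 81 and 12 targets did.

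At 120 hpf the log2 difference (Pb minus control) was -0.09 for *fat3a* (SE 0.306), -0.14 for *celsr2* (SE 0.581) and -0.05 for *pcdh2ab7* (SE 0.368). The ratios of replicates 1, 2 and 3 were 0.11, -0.37 and -0.02 for *fat3a*, 0.68, -1.63 and 0.53 for *celsr2*, and 0.35, -0.21 and -0.28 for *pcdh2ab7*. Their signs were mixed within each gene, and all 3 pairs of groups overlapped. Leaving out control replicate 1 turned the mean differences to 0.13, 0.08 and 0.11, and leaving out Pb replicate 2 to 0.22, 0.37 and 0.31. Over all targets limma called 0% (112 had an unadjusted p under 0.05), and 1.82% had all Pb arrays below all control arrays. The Pb difference at 120 hpf minus that at 72 hpf was 0.48 for *fat3a* (SE 0.433), 0.61 for *celsr2* (SE 0.821) and 0.65 for *pcdh2ab7* (SE 0.52). In this fit, which does not pair the replicates, each was smaller than 1.5 times its error. For this difference limma called 0% of all targets as well (75 had an unadjusted p under 0.05).

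**Figure D2:**
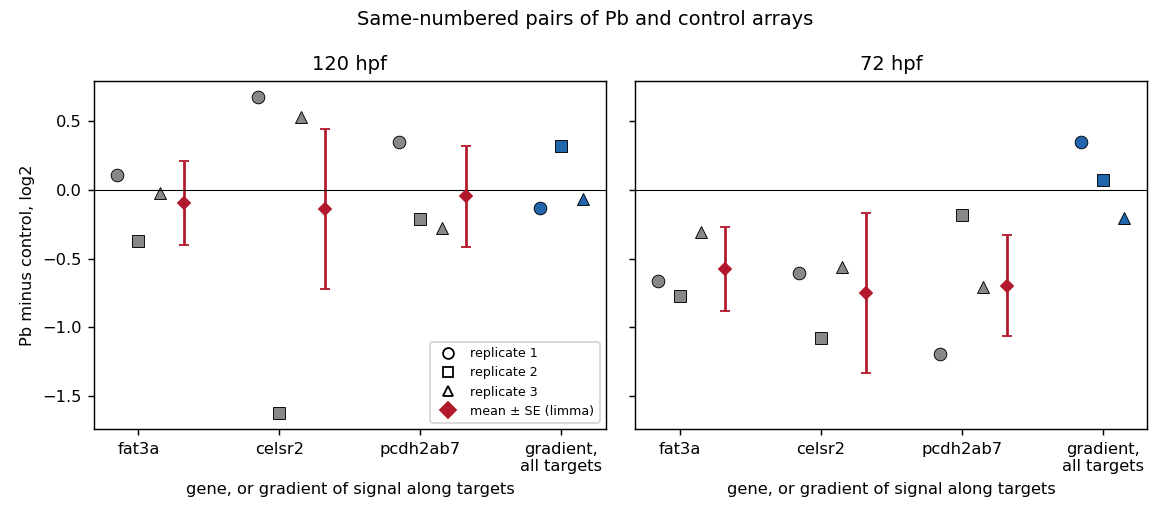
Log2 ratio of the Pb array to the control array of the same number (vertical axis) for the 3 genes at 120 and 72 hpf, with 1 symbol per replicate, the mean and limma SE as red diamonds with bars, and in blue the same difference for the gradient of signal along all targets. The gene ratios at 72 hpf, from 3 pairs of arrays, all lie below 0, between -1.19 and -0.18. Those at 120 hpf lie on both sides of 0, and the gradient differences run from -0.206 to 0.349 at 72 hpf.

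The ages were then compared within each exposure. In controls, 120 hpf larvae had less signal than 72 hpf larvae by -0.52 log2 units for *fat3a* (SE 0.306), -1.04 for *celsr2* (SE 0.581) and -0.61 for *pcdh2ab7* (SE 0.368). The *celsr2* value corresponds to a signal 2.06-fold higher at 72 hpf. Only the *pcdh2ab7* arrays of the 2 ages did not overlap (8.06, 7.19 and 7.96 at 120 hpf, against 8.38, 8.44 and 8.24 at 72 hpf), as was so for 15.6% of all targets in the lower and 15.1% in the higher direction. In Pb larvae the differences of 120 against 72 hpf were -0.04 for *fat3a*, -0.43 for *celsr2* and 0.04 for *pcdh2ab7*, with overlap in all 3, where 6.98% of all targets were lower and 7.97% higher without overlap. limma called 4.75% of all targets between the ages in controls (1341 higher and 424 lower at 120 hpf) and 2.96% in Pb larvae (830 higher and 271 lower), and 0 of the 3 genes in either. The 2 stage contrasts and the 2 Pb contrasts share the same groups, so the high control group at 72 hpf enters both the Pb difference at 72 hpf and the stage difference in controls. Without control replicate 2 at 120 hpf the stage difference in controls was -0.35 for *fat3a*, -1.27 for *celsr2* and -0.34 for *pcdh2ab7*, and without control replicate 3 at 120 hpf it was -0.59 for *celsr2*.

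Each gene was read by 12 probes, which share the arrays and the transcript and are no replicates. The probes covered positions 14 to 2464 nt of the *fat3a* target, 179 to 8496 nt of *celsr2* and 390 to 967 nt of *pcdh2ab7*, counted from the start of each target sequence, and several *pcdh2ab7* probes overlap one another. At 72 hpf the signal in Pb larvae was below that of controls at 10 of 12 *fat3a* probes, 10 of 12 *celsr2* probes and 12 of 12 *pcdh2ab7* probes. Among the 21894 targets with 12 probes, 3.79% had all 12 lower and 13.2% had 10 or more lower. The *fat3a* probes ranged from -1.38 at 682 nt to 0.69 at 1663 nt with a median of -0.68, and 3 of them had Pb arrays all below control arrays. In replicate 3 the *fat3a* ratios ran from -2.48 at 1260 nt to 1.99 at 1544 nt, where Pb read 9.36 and control 7.37. The *fat3a* mean of that Pb array thus averages probes of opposite direction. The *pcdh2ab7* probes ranged from -1.52 at 861 nt to -0.10 at 765 nt with a median of -0.63, and 1 separated the groups. Of the *celsr2* probes 3 did so. The share of all probes that separate the groups is not given here, so nothing is read from these counts. At 120 hpf 6 of 12 probes of each gene were lower in Pb larvae.

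The *celsr2* probes spread most at 72 hpf, from -1.96 at 5411 nt to 1.28 at 827 nt, with a median of -0.997. The probe at 827 nt stood apart. It read 12.61, 7.18 and 10.06 log2 units in the Pb arrays at 72 hpf, against 6.76, 9.29 and 9.95 in the control arrays. The array of Pb replicate 1 was thus 5.85 log2 units above its control at that probe, while the mean of the other *celsr2* probes was 7.06 in that Pb array, against 8.25 in its control. Leaving the probe out gave a *celsr2* difference of -0.93 at 72 hpf with ratios of -1.19, -0.98 and -0.62 in replicates 1, 2 and 3, and the groups still overlapped. When each probe was left out in turn, the 72 hpf difference stayed between -0.69 and -0.51 for *fat3a*, between -0.93 and -0.64 for *celsr2* and between -0.75 and -0.62 for *pcdh2ab7*. Another *celsr2* probe, at 179 nt, also had a higher mean in Pb larvae at 72 hpf (0.37). It read 10.85 log2 units in Pb replicate 3, against 8.13 in its control, and was kept when the 827 nt probe was left out.

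In the stage comparison of controls 9 of 12 *fat3a* probes and all 12 probes of both *celsr2* and *pcdh2ab7* were lower at 120 hpf than at 72 hpf, as were all 12 in 13.0% of the targets with 12 probes. The *celsr2* probes ran from -1.50 at 1223 nt to -0.33 at 8496 nt, with a Spearman rho of 0.895 between difference and position over the 12 probes. Control 120 hpf replicate 3 read 5.02 at 827 nt and 5.75 at 2320 nt, against 8.30 and 8.16 in replicate 1 and 9.15 and 8.47 in replicate 2. At 8496 nt replicates 1, 2 and 3 read 13.06, 12.50 and 13.08. Much of the trend thus comes from 1 array, and the rho without it was not computed. Over all arrays the rho was 0.29 for *fat3a* and -0.08 for *pcdh2ab7*, whose probes span the shortest stretch. In Pb larvae 8 *fat3a*, 8 *celsr2* and 4 *pcdh2ab7* probes were lower at 120 hpf, the *celsr2* probe at 827 nt by -2.98 log2 units.

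**Figure D3:**
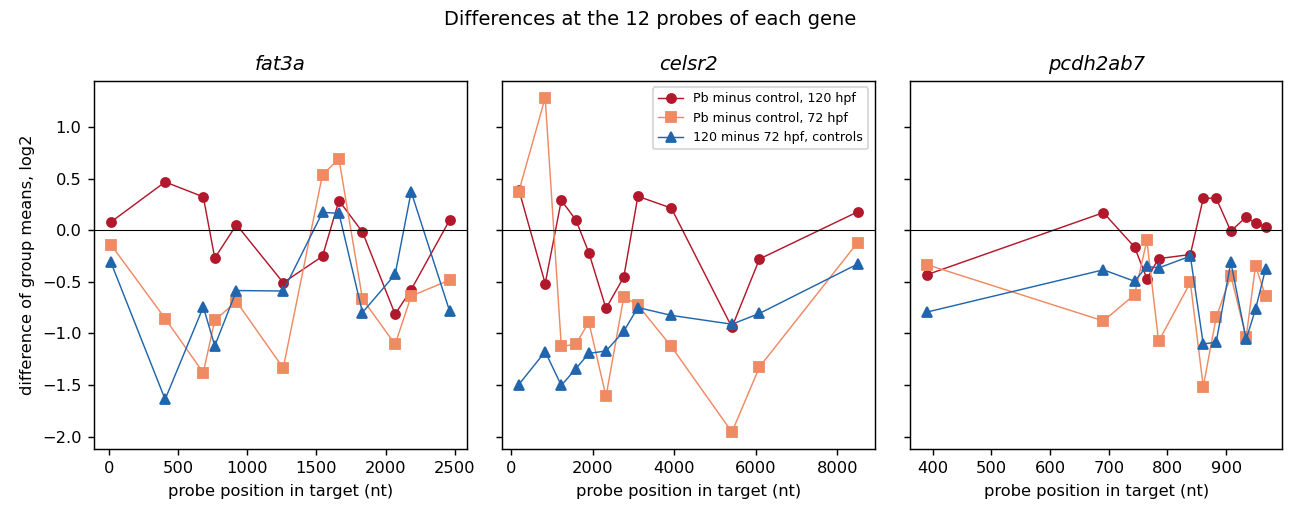
Log2 difference of group means (vertical axis) at each probe of *fat3a*, *celsr2* and *pcdh2ab7* against the probe's position in its target in nt (horizontal axes), for Pb minus control larvae at 120 hpf (red circles) and 72 hpf (orange squares) and for 120 minus 72 hpf in controls (blue triangles). Most orange squares lie below 0 (10, 10 and 12 of 12), the *celsr2* probe at 827 nt is the highest of its gene at 1.28, and the blue triangles of *celsr2* come nearer to 0 toward the end of the target. Much of that trend comes from control 120 hpf replicate 3, which read 5.02 at 827 nt, against 8.30 and 9.15 in replicates 1 and 2.

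Signal along the targets differed among arrays. Over 21779 targets the log2 signal changed between the opposite ends of a target by 0.272, 0.468 and 0.203 in Pb larvae at 120 hpf, 0.401, 0.147 and 0.270 in controls at 120 hpf, 0.608, 0.103 and 0.0374 in Pb larvae at 72 hpf, and 0.259, 0.0272 and 0.243 in controls at 72 hpf (last probe minus first probe). The steepest array, Pb replicate 1 at 72 hpf, was also the lowest of its age for each of the 3 genes. Pb replicate 2 at 120 hpf, the next steepest, was the lowest of all 12 for the 3 genes. After these came control replicate 1 at 120 hpf (0.401), which was the highest control of its age for *fat3a* (7.52) and *pcdh2ab7* (8.06). With this gradient as a covariate, an alternative chosen after seeing the data, the 72 hpf differences were -0.55 for *fat3a*, -0.59 for *celsr2* and -0.63 for *pcdh2ab7*. Restricting each target to probes within 500 nt of its last probe left 3 probes for *fat3a* (-0.74), 1 for *celsr2* (-0.12) and 11 for *pcdh2ab7* (-0.73). The 1 *celsr2* probe left, at 8496 nt, was by far the brightest of its gene. Its mean was 13.06 log2 units, against a median of 7.57 over the *celsr2* probes. The part of RNA quality in these values was not tested.

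Another 30 genes of the cadherin superfamily carried a symbol on the array, 27 of them clustered protocadherins. Further members may be among the targets without a symbol. The paper lists *CELSR3* and *FAT1* as lower in Pb embryos at 72 hpf, and no target named here stands for either. limma called 0 of the 30 in any comparison. Of all targets it called 0% for Pb at either age, 4.75% between the ages in controls and 2.96% in Pb larvae. At 72 hpf 26 of 30 had a lower mean in Pb larvae (44.3% of all targets did) and 4 a higher one. Their median log2 difference was -0.28, against 0.04 over all targets. Values ran from -0.60 (*pcdh2ab3*) to 0.14 (*pcdh2g12*), 0 of the 30 separated the groups, 0 had an unadjusted p under 0.05 (smallest 0.102), and 0 met either criterion of the methods. The family median was -0.63, -0.08 and -0.14 in replicates 1, 2 and 3, and without Pb replicate 1 it was -0.08, with 21 lower and 9 higher. At 120 hpf 17 were lower (49.1% of all targets were) and 13 higher in Pb larvae, with a median of -0.02.

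The nearest relatives of *pcdh2ab7* are the other variable isoforms of the same cluster. All 6 other *pcdh2ab* genes with a symbol had lower means in Pb larvae at 72 hpf, as did 44.3% of all targets. Of the 6 genes 0 passed the test, as did 0% of all targets. The differences were -0.31 for *pcdh2ab2*, -0.60 for *pcdh2ab3*, -0.44 for *pcdh2ab5*, -0.38 for *pcdh2ab9*, -0.57 for *pcdh2ab10* and -0.15 for *pcdh2ab12*. Of these 6 genes 3 had a ratio below 0 in every replicate. The ratios of replicates 1, 2 and 3 were -1.08, -0.14 and -0.59 for *pcdh2ab3*, -0.64, -0.05 and -0.63 for *pcdh2ab5* and -1.02, -0.11 and -0.57 for *pcdh2ab10*. In the other genes replicate 3 was above 0, with ratios of -0.84, -0.34 and 0.26 for *pcdh2ab2*, -0.73, -0.42 and 0.00469 for *pcdh2ab9* and -0.54, -0.23 and 0.32 for *pcdh2ab12*. Current RefSeq annotation places 10 other *pcdh2* genes over the span of *pcdh2ab7*, 9 of them with a symbol here. How far the *pcdh2ab7* probes also read these isoforms is uncertain. The same was not checked for the other clustered protocadherins, so counts of them may not be counts of separate readings.

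The 3 *pcdh2aa* genes had 0.04 (*pcdh2aa1*), -0.37 (*pcdh2aa3*) and -0.36 (*pcdh2aa15*). The 14 gamma genes of the same cluster had a median of -0.32, with 12 lower means. The lowest were *pcdh2g1* at -0.46, *pcdh2g16* at -0.44 and *pcdh2g6* at -0.43. The highest were *pcdh2g12* at 0.14, *pcdh2g2* at 0.004 and *pcdh2g17* at -0.02. The 4 cluster 1 genes (*pcdh1g1*, *pcdh1g2*, *pcdh1g3* and *pcdh1gb9*) had a median of -0.14. Of the unclustered cadherins, *cdh5*, the endothelial VE-cadherin, had -0.42, and the type II cadherins *cdh7a* and *cdh18a* had -0.26 and 0.05. None of these values passed the test, and neither did any other target.

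Between the ages in controls, 29 of the 30 genes had a lower mean at 120 hpf (54.9% of all targets did) and 1, *pcdh2aa3*, a higher one. The family median was -0.25, against -0.04 over all targets. 7 were lower without overlap (*cdh5*, *cdh7a*, *pcdh2ab3*, *pcdh2ab5*, *pcdh2g12*, *pcdh2g16* and *pcdh2g17*), set against the 15.6% of all targets. The differences of *cdh5* (-0.71, limma adjusted p = 0.230) and *pcdh2ab2* (-0.62, limma adjusted p = 0.299) had the smallest unadjusted p-values. Without control replicate 2 at 120 hpf, left out after seeing the data, the family median was -0.06 with 20 lower and 10 higher. In Pb larvae 22 were lower (55.4% of all targets were) and 8 higher at 120 hpf, with a median of -0.08. This median was 0.04 when only probes within 500 nt of the last probe were used.

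**Figure D4:**
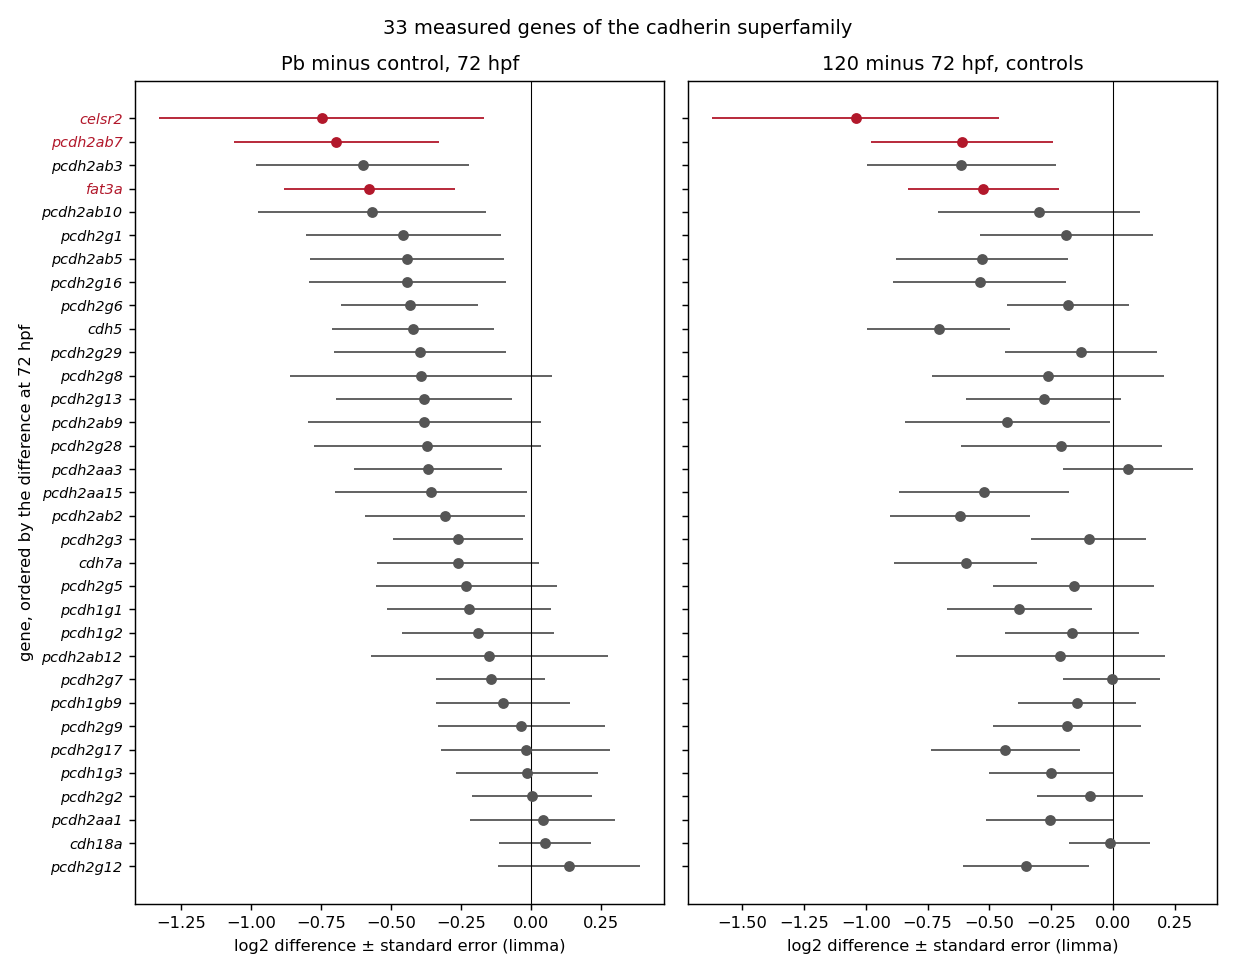
Log2 difference (horizontal axes, points) with its limma SE (bars) for the 33 cadherin superfamily genes with a symbol (rows, ordered by the 72 hpf value). Pb minus control larvae at 72 hpf are on the left and 120 minus 72 hpf in controls on the right, with the 3 chosen genes in red. On the left 29 of the 33 points lie below 0 (44.3% over all targets), and *celsr2* (-0.75), *pcdh2ab7* (-0.70) and *pcdh2ab3* (-0.60) are the lowest. On the right 32 of 33 lie below 0 (54.9% over all targets).

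A list of 73 planar polarity, Hippo and catenin genes was also looked up, of which 11 carried a symbol here. limma called 0 of 11 in any comparison, where it called 0% of all targets for Pb at either age. Between the ages it called 4.75% of all targets in controls and 2.96% in Pb larvae. At 72 hpf 10 of 11 had a lower mean in Pb larvae (44.3% of all targets did), with a median of -0.25. The medians of replicates 1, 2 and 3 were, however, -0.98, -0.01 and 0.18. *vangl2*, a core planar polarity membrane protein, had -0.83 with ratios of -2.27, -0.01 and -0.20. The Wnt and polarity receptors *fzd3b* and *fzd6* had -0.76 (ratios -2.39, -0.14 and 0.25) and -0.24 (ratios -0.98, 0.02 and 0.22). In these 3 genes replicate 1 had the lowest ratio by far, where *celsr2* had -0.61, -1.07 and -0.56 with all its probes. Without the *celsr2* probe that stood apart at 72 hpf, left out after seeing the data, its ratios were -1.19, -0.98 and -0.62. Replicate 1 was then the lowest for *celsr2* too, so its contrast with these genes in replicate order rests on 1 probe. *nf2b*, the merlin gene upstream of Hippo signaling, had -0.78 with ratios of -1.47, -0.14 and -0.72 and the 1 unadjusted p under 0.05 of the list (limma adjusted p = 0.999), and *wnt5a*, a polarity ligand, had the 1 higher mean (0.14); both were named after their values were seen. At 120 hpf 7 were lower (49.1% of all targets were) and 4 higher in Pb larvae, with a median of -0.14. Between the ages in controls the median was -0.43. At 120 hpf 4 of 11 were lower without overlap, *vangl2* (-0.999), *ctnna1* (-0.49), *fzd6* (-0.47) and *wnt5a* (-0.43), and 2 were higher without overlap, *prickle2a* (0.55) and *amotl2b* (0.35), where 15.6% of all targets were lower and 15.1% higher in that way.

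Genes with the most similar profile were found among 2660 named targets by the root mean square (RMS) difference over the 12 arrays, after each target was centered on its own mean. For *fat3a* these were *syne3*, a nuclear envelope nesprin (RMS 0.148 log2 units), *msi1a*, a Musashi RNA-binding protein (0.160), and *ldb2a*, a LIM domain-binding cofactor (0.199), where the median over all compared targets was 0.539. For *pcdh2ab7* they were *slc17a6a*, a vesicular glutamate transporter (0.158), *pcdh2ab10* (0.168) and *pcdh2ab5* (0.169), against a median of 0.611. *celsr2* had no neighbor as close, and its nearest were the semaphorin receptor *plxnd1* (0.445), the giant adhesion receptor *adgrv1* (0.457) and the Hippo coactivator *wwtr1* (0.457), against a median of 0.885. Each of these 9 genes had its highest group mean in control larvae at 72 hpf, a feature that their choice by likeness fixes in part. Among the chosen genes *fat3a* and *pcdh2ab7* were 0.241 apart, and *celsr2* was 0.623 from *fat3a* and 0.693 from *pcdh2ab7*.

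Whole-larva identity was checked with marker lists. Of 18 neuronal markers 3 carried a symbol here, and all had bright signals: *syn2a* at the 92.6th, *stmn2b* at the 96.4th and *atp1a3b* at the 94.9th percentile of target means. At 72 hpf their differences between Pb and control larvae were 0.11, 0.06 and -0.26, and the glial *fabp7a* had 0.25. The 3 lens markers with a symbol all had lower means in Pb larvae at that age, with -0.24 for *cryba2a*, -0.36 for *mipa* and -0.32 for *crygm2d3*. At 120 hpf these lens markers were lower in Pb larvae too, with -0.28, -0.08 and -0.46. Their part in the cadherin values was not tested. At 72 hpf muscle *mylpfb* had -0.17, red cell *hbae3* -0.07, pancreatic *prss59.1* -0.04, and the heart markers *myl7* and *myh6* 0.03 and 0.11. Muscle (*mylpfb*), red cell (*hbae3*), lens (*cryba2a*) and pancreas (*prss59.1*) markers were at or above the 99.3rd percentile. The heart markers *myl7* and *myh6* were dim, at the 41.6th and 23.7th percentile, and no named target represented the liver, photoreceptor and epidermis lists. The 3 cadherin genes themselves had mean signals at the 24.4th (*fat3a*), 39.6th (*celsr2*) and 34.8th (*pcdh2ab7*) percentile. The *celsr2* mean includes its bright probe at 8496 nt.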

How the data were processed

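Pools of 50 larvae were hybridized to one-color NimbleGen arrays with 385000 probes for 37157 targets. The authors extracted linear intensity values with NimbleScan and applied quantile normalization, and the deposited intensity per probe matched in distribution within each Pb and control pair of the same number but not between pairs, within an age or across ages. They also named Robust Multichip Average for gene calls. No detection call per probe was used. Log2 values of the deposited intensities were brought to 1 common distribution across the 12 arrays by quantile normalization, and the signal of a target was the mean of its probes. limma 3.58.1 (lmFit and eBayes, R 4.3.3) was fitted to 4 groups without a block, with Benjamini-Hochberg adjustment over all 37157 targets and a threshold of 0.05. Precision is limited by how many arrays each group has. Symbols came from the platform annotation (2626 targets) and the current RefSeq table (37). The 3 genes and all lists were chosen with earlier results of these data known. The text names part of the cadherin superfamily list genes, some of them by their values. It also names the first 3 genes with a symbol of each other list, further genes of the planar polarity, Hippo and catenin list by their values, and the 3 targets most like each gene. Replicate numbers came from the labels. Deviations of Pb and control samples of the same number correlated at 120 hpf (r = 0.548, 0.434 and 0.268), but not for all numbers at 72 hpf (0.452, 0.402 and -0.07). Between Pb samples of the 2 ages r was -0.308, -0.455 and 0.551, so such values cannot establish that the numbers pair the samples.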

Additional observations from a re-analysis of the deposited data

How the results depend on the processing

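The log2 differences of *fat3a*, *celsr2* and *pcdh2ab7* were recomputed under 24 alternatives. Of 270 values 3 moved by more than the gene's residual SD, a wide measure for *celsr2* (0.857). Some alternatives, such as the replicate block and the fit to only the arrays compared, leave the differences themselves unchanged, so their values could not move. At 72 hpf the Pb difference was below 0 in all 16 values for *fat3a*, 18 for *celsr2* and 17 for *pcdh2ab7*. It ran from -0.75 to -0.44 for *fat3a*, -1.14 to -0.12 for *celsr2* and -0.995 to -0.39 for *pcdh2ab7*. At 120 hpf the sign was kept in 13 of 16, 12 of 18 and 12 of 17 alternatives. Array weights, which gave control 120 hpf replicate 3 a weight of 13.0, moved *celsr2* to 1.03 for Pb at 120 hpf. They also moved it to 1.95 for the difference between both Pb effects. For 120 against 72 hpf in controls *celsr2* had -1.94 and *fat3a* -0.60 with these weights. Both passed the limma threshold there, as did far more of all targets than in the main fit (counts below). Nothing is read from these 2 calls, because the genes were chosen with these values known. A filter on the dimmest 25% of targets removed *fat3a* and one on the dimmest 50% removed all 3 genes, so these gave no value for them.

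With the replicate block, limma called 0 targets for Pb at either age, 1204 between ages in Pb larvae and 1963 in controls, and the SEs of the Pb differences were 0.176 for *fat3a*, 0.407 for *celsr2* and 0.229 for *pcdh2ab7*. For the Pb difference at 120 hpf minus that at 72 hpf, the SEs with the block were 0.250 for *fat3a*, 0.575 for *celsr2* and 0.323 for *pcdh2ab7*. Without the block they were 0.433, 0.821 and 0.52. The block changed no call of the 3 genes.

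Counts of called targets moved more. For Pb they were 0 under every limma alternative, while the methods' t-test with a fold gave 81 at 120 hpf and 244 at 72 hpf and the fold in each pair gave 12 and 87. Between ages in Pb larvae (1101) they were 366 with values as deposited, 2222 with quantile normalization within each age (633 higher and 1589 lower), 364 with only the arrays compared (329 higher and 35 lower), 1995 with the gradient covariate (1299 and 696) and 580 to 1363 when 1 array was left out (lowest without Pb 120 hpf replicate 1). In controls (1765) they were 499 as deposited (352 and 147), 1082 with median centering (916 and 166), 1173 with probes within 500 nt of the last, 3542 with only the arrays compared (2201 and 1341), 13841 with array weights (6677 and 7164) and 747 to 1550 when 1 array was left out (lowest without control 72 hpf replicate 1). Quantile normalization within each age gave 858 higher and 1732 lower in controls. It and the values as deposited moved the median of all targets between ages to -0.33. The causes were not tested.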
